A study of Mus musculus with 14 samples.

Results

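The transcripts described here encode splicing factors and RNA-binding helicases: 117 of the 55421 genes in the deposited count table. They were taken by symbol, as the numbered Rbm, Srsf, Sf3a or Sf3b and Ddx genes and all Hnrnp genes, with 6 pseudogenes and the Y-linked Ddx3y left out. The set held 41 RNA-binding motif (Rbm) genes, 35 DEAD-box helicases (Ddx), 20 heterogeneous nuclear ribonucleoproteins (Hnrnp), 12 SR proteins (Srsf) and 9 subunits of the splicing factor complexes SF3A and SF3B (Sf3); 115 of the 117 are annotated as protein coding. RNA was sequenced from the brainstem of 7 mice, each giving 1 immunoprecipitate (IP) and 1 total homogenate (pre-IP) library. All 7 carried TH-Cre;Slc6a2-eGFP/Rpl10a from a cross on a C57Bl/6 background, and at an age of 2 to 3 months each was infused in the locus coeruleus, a small noradrenergic nucleus, with human tau carrying the P364S mutation or with EYFP as the control; the tau animals are called B, C, L and M and the EYFP animals H, I and K. In these mice Cre is driven from the tyrosine hydroxylase gene and the eGFP-tagged ribosomal protein Rpl10a from the noradrenaline transporter gene Slc6a2, so the IP draws ribosome-bound RNA from cells that express the transporter, while the pre-IP holds RNA of every cell of the dissected tissue. Sex was mixed within both infusion groups, per the labels.

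Splicing is carried out by the spliceosome, a machine of small nuclear RNAs and proteins. SF3A and SF3B are parts of the U2 particle that recognises the branch point, SR proteins bind exons mainly as activators of nearby splice sites, and Hnrnp proteins coat nascent RNA and often repress them. Rbm proteins are a mixed group with RNA-recognition domains, several of them spliceosome components, and DEAD-box proteins use ATP to unwind or remodel RNA in splicing, export, translation and ribosome assembly. In neurons these factors set which exons enter the mature message, and SR and Hnrnp proteins are among the known regulators of exon 10 of the tau gene itself.

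The libraries held between 41843489 and 65664551 counts, and 3 counts, the upper limit allowed by a count of 0, corresponded to at most 0.0717 CPM (counts per 1000000). Levels below are CPM scaled by the TMM factors of edgeR. Tau construct counts ranged from 3527 to 47177 in the tau libraries and from 2 to 18 in those of EYFP animals H and I, but reached 408 and 398 in those of EYFP animal K. The IP RNA of EYFP animal I had an RNA integrity number of 4.2, against 7.7 to 9 in the other IP libraries, and animal M, labelled female, had 674 and 1153 counts of 4 Y-linked genes. RNA concentrations were 0.1 to 2.8 ng per microlitre in IP and 11.4 to 29.9 in pre-IP. Within IP they were 0.1, 0.8, 0.2 and 0.5 in tau animals B, C, L and M. In EYFP animals H, I and K they were 2.8, 1.6 and 0.7. The part of RNA concentration in the results below was not tested. Of 12 noradrenergic marker genes, Hand2 did not pass the filter on low counts in the test of fractions and the other 11 all rose in IP (edgeR adjusted p under 0.05). The mean log2 IP over pre-IP of the list was 4.39, 3.40, 3.34 and 1.64 in tau animals B, C, L and M but 0.71, 0.88 and 0.62 in EYFP animals H, I and K; its summed level was 1052 to 8219 CPM in tau IP, 528 to 612 CPM in EYFP IP and 366 to 474 CPM in pre-IP of both treatments. For the serotonergic, cholinergic, other neuron, astrocyte, oligodendrocyte, microglia and endothelium lists the mean ratio ran from -0.06 to 0.25 in EYFP animals. In tau animals it ran from -0.64 to -0.33. The EYFP precipitates thus held these markers at a share near that of the homogenate. The part of these differences in the results below was not tested.

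Nearly all members were detected in this tissue. A count was found in every library for 108 of the 117, and Rbm31y and Srsf19 had 0 counts in all 14. Between genes, levels were compared per kilobase of gene model in the pre-IP libraries (mean ± SD, n = 7). The SF3 subunits had the highest family median, 16.5 CPM per kilobase, against 9.78 for SR proteins, 9.52 for Hnrnp, 3.84 for Ddx and 1.09 for Rbm genes. At the top stood Rbm8a, the core protein of the exon junction complex, with 42.9 ± 2.29 CPM per kilobase, and the branch-point subunits Sf3b4 and Sf3b2 with 39.8 ± 4.64 and 38.0 ± 3.97. They did not differ beyond their spread from Hnrnpk, a poly-C binding protein, with 36.1 ± 7.78, from Sf3b6, the subunit at the branch-point adenosine, with 35.5 ± 5.48, or, for the SF3 pair, from the SR protein Srsf5 with 34.6 ± 2.49. The highest Ddx genes were Ddx24 at 29.6 ± 4.74, the export helicase Ddx39b at 29.0 ± 3.22 and Ddx1 at 26.8 ± 4.98.

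Comparing IP with pre-IP libraries asks which of these transcripts were held at a higher or lower share in the precipitated RNA than in the homogenate. Of 110 members that passed the filter on low counts, 34 rose and 7 fell (edgeR quasi-likelihood test over all 14 libraries with treatment as covariate, adjusted p under 0.05). Over all 18792 genes tested, 31% were called, 16.3% higher and 14.7% lower, so the share called among the members was near that of all genes while the split leaned upward. With the animal as replicate block, which pairs the fractions, 30 rose and 9 fell, where 32.6% of all genes were called, 16% higher and 16.6% lower. The members' median log2 fold change was 0.14, with 70 above 0 and 40 below. Hnrnp transcripts gave 10 higher and 1 lower of 20, Rbm 12 and 2 of 37, Ddx 9 and 1 of 33, SF3 subunits 2 and 3 of 9, and SR proteins 1 and 0 of 11. In bulk RNA, fewer cells of a type and less RNA per cell cannot be told apart, and the same holds for these shares.

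**Figure D1:**
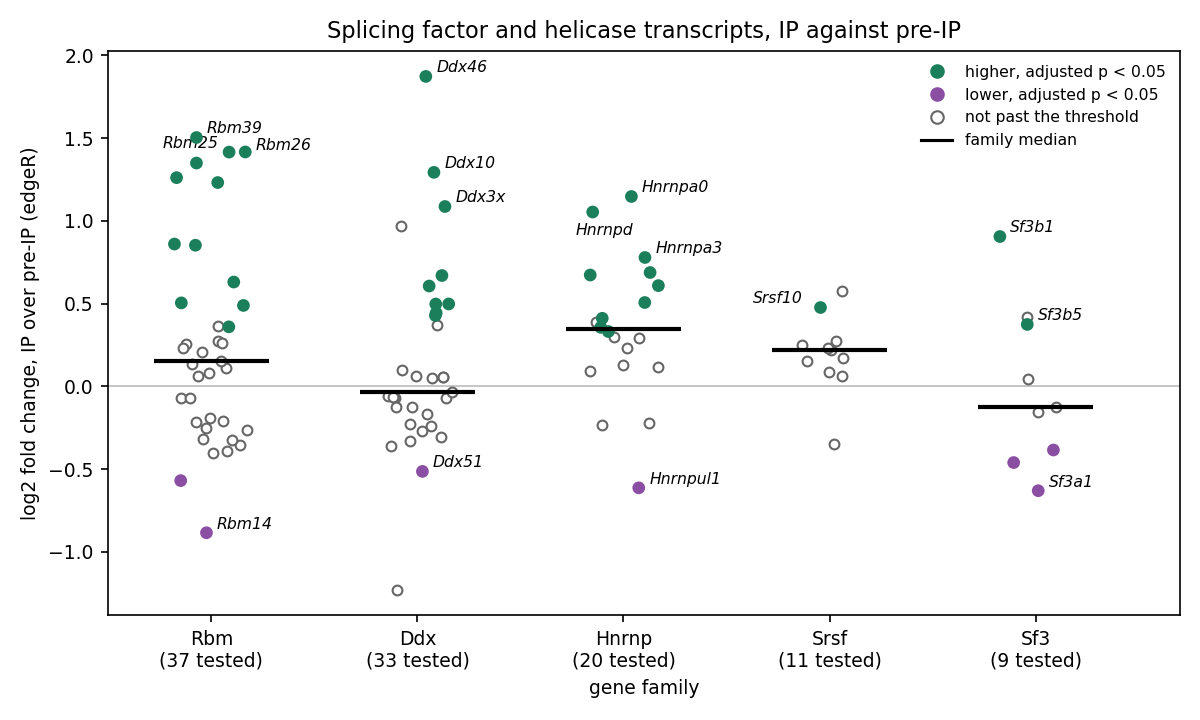
Log2 fold change of IP over pre-IP (edgeR, vertical axis) for the 110 members tested, by gene family, with filled points past the adjusted p threshold of 0.05 and bars at the family medians. Hnrnp genes sit mostly above 0, the Rbm and Ddx families hold the extremes in both directions, and the SF3 subunits split, with Sf3b1 at 0.91 and Sf3a1 at -0.63.

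Rbm25, Rbm39 and Ddx46, which had the largest rises among transcripts of spliceosomal proteins, encode stretches rich in arginine and other charged residues. With genes chosen after their values were seen, the stretch of 60 coding bases richest in the codons GAA and AGA is shown for each. The rising but GC-rich Hnrnpa0 follows, then Sf3b3 and Rbm14, which fell. Capitals mark GAA (glutamate) and AGA (arginine) codons in the reading frame. Other codons for arginine and charged residues are in lower case, so the marks do not measure arginine or charge. Each stretch lies within 1 coding exon, and coordinates and bases are those of GENCODE M21 on GRCm38.
Rbm25 (chr12:83664054-83664113, plus strand): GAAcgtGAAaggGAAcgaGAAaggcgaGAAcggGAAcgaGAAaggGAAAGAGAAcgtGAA
Rbm39 (chr2:156172938-156172997, minus strand): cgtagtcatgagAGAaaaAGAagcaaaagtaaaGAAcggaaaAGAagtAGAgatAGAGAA
Ddx46 (chr13:55647636-55647695, plus strand): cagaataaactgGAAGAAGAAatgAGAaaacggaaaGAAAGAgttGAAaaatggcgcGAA
Hnrnpa0 (chr13:58127435-58127494, minus strand): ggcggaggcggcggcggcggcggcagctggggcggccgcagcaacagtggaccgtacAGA
Sf3b3 (chr8:110835639-110835698, minus strand): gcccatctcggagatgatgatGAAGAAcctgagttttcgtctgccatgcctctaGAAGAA
Rbm14 (chr19:4803945-4804004, minus strand): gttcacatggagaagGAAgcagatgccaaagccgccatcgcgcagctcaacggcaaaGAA
The Rbm25 stretch held 11 GAA or AGA codons of 20, Ddx46 held 8 and Rbm39 held 7. Sf3b3 held 4, Rbm14 held 2 and Hnrnpa0 held 1, in a stretch of 78.3% G and C.

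Among Rbm genes the U1-associated splicing regulator Rbm25 ranged from 30.8 to 45.9 CPM (median 32.6) in IP and from 10.6 to 17.3 CPM (median 13.4) in pre-IP. Rbm39, a protein related to the splice-site factor U2AF, ranged from 89.2 to 140.2 CPM (median 102) in IP and from 32.1 to 54.1 CPM (median 34.8) in pre-IP. For both, every IP library stood above every pre-IP library. The log2 fold changes were 1.42 ± 0.14 (SE) for Rbm25 and 1.50 ± 0.15 for Rbm39, with edgeR adjusted p of 2.15e-05 and 2.79e-05. Rbm26, a zinc-finger protein of the nuclear exosome connection, was from 5.74 to 15 CPM (median 10.3) in IP and from 2.85 to 4.32 CPM (median 3.83) in pre-IP, without overlap, and rose by 1.42 ± 0.17 (edgeR adjusted p = 6.36e-05). Rbm27, its paralog, and Rbm34 also rose without overlap, by 0.85 and 0.86.

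Rbm10, a splicing repressor of cassette exons, went the other way: it ranged from 23.0 to 47.6 CPM (median 40.9) in IP and from 50.9 to 66.5 CPM (median 57.4) in pre-IP, and fell by 0.57 ± 0.14 (edgeR adjusted p = 0.00584). Its paralog Rbm5 had -0.21 and did not pass (edgeR adjusted p = 0.230). Rbm14, a paraspeckle protein, had the largest fall of the family, with from 5.07 to 12.2 CPM (median 9.30) in IP, from 11.1 to 22.8 CPM (median 16.6) in pre-IP and a log2 fold change of -0.88 ± 0.20; 2 IP libraries lay within the pre-IP range. Rbm14 shares 99.8% of its span with the readthrough gene Gm21992 on the same strand, and how shared reads were counted is not given in the sources used here. Rbm42 shares 99.98% of its span with Gm21982 and had at most 4 counts in a library, so it was not tested. Rbm8a2 and Rbm46 passed at 1.35 and 1.26, but not with the animal as replicate block (edgeR adjusted p = 0.0822 and 0.0818). Rbm8a2 lies within Pld5, and neither exceeded 0.919 CPM in any library.

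Of the helicases, Ddx46, the Prp5 counterpart that lets the U2 particle bind the branch point, had the largest rise of all members. It ranged from 29.0 to 55.8 CPM (median 36.0) in IP and from 8.18 to 14.5 CPM (median 11.1) in pre-IP, a log2 fold change of 1.87 ± 0.17 (edgeR adjusted p = 1.93e-05). The lowest IP library was above the highest pre-IP library by more than the whole pre-IP range. Ddx3x, a translation initiation helicase, ranged from 53.8 to 99.8 CPM (median 83.1) in IP and from 22.5 to 48.0 CPM (median 39.4) in pre-IP and rose by 1.09 ± 0.16 (edgeR adjusted p = 0.000205). The decay helicase Ddx6 did not pass, at -0.17 (edgeR adjusted p = 0.489).

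Of 13 nucleolar helicases of ribosome assembly, 3 rose and 1 fell, a share near the 31% called over all genes, and the median was -0.06. Ddx10 rose by 1.29 ± 0.22 from a pre-IP level of 2.42 to 4.74 CPM (median 2.93) to 5.60 to 12 CPM (median 7.56) in IP, without overlap (edgeR adjusted p = 0.000448). Ddx18 and Ddx52 rose by 0.61 and 0.50, and Ddx51 fell by 0.51 ± 0.12 (edgeR adjusted p = 0.00532). Of the 10 helicases found from the list for nuclear splicing and mRNA export, Ddx46, Ddx17 and Ddx5 rose and none fell, again near the 31% of all genes, with a median of -0.01; the tri-snRNP helicase Ddx23 had -0.07 and the export helicases Ddx39b and Ddx19a had 0.10 and -0.24. Ddx1, a component of the tRNA ligase complex and the highest Ddx gene per length over all libraries, rose by 0.43 ± 0.12 (edgeR adjusted p = 0.0122).

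For Hnrnp transcripts the family median of log2 IP over pre-IP was above 0 in 7 of 7 animals, from 0.02 in tau animal B to 0.73 in EYFP animal I. Without TMM scaling the median of animal B was -0.24, so the count of animals above 0 became 6 of 7. The median over all members was likewise above 0 in 7 of 7 animals, from 0.05 to 0.28, and without scaling in 4 of 7. In the other families it was above 0 in 6 (Rbm), 5 (SR proteins), 4 (Ddx) and 1 (SF3 subunits) of 7 animals. Hnrnpa0, an AU-rich element binding protein, ranged from 14.6 to 22.2 CPM (median 15.8) in IP and from 6.90 to 9.51 CPM (median 7.26) in pre-IP and rose by 1.15 ± 0.13 (edgeR adjusted p = 3.49e-05). Hnrnpd, another AU-rich element binding protein, rose by 1.05 ± 0.23, but with a wide IP range of 33.1 to 106 CPM against 18.9 to 38.2 CPM in pre-IP. The other A-type proteins also rose: Hnrnpa3 by 0.78, Hnrnpa1 by 0.61 and Hnrnpa2b1 by 0.51. The U-like pair diverged: Hnrnpul2 rose by 0.67 ± 0.12 and Hnrnpul1 fell by 0.61 ± 0.11, both without overlap between fractions (edgeR adjusted p = 0.000638 and 0.000536). Hnrnpul1 was from 34.6 to 55.6 CPM (median 49.0) in IP and from 65.7 to 83.0 CPM (median 72.1) in pre-IP. Hnrnpr rose by 0.41, but this was the 1 called member whose sign turned, to -0.45, with offsets for transcript GC and length and the animal as replicate block (edgeR adjusted p = 0.00619).

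Of 11 SR proteins tested, Srsf10 passed, with a rise of 0.48 ± 0.15 from a pre-IP range of 17.8 to 37.9 CPM to 31.9 to 47.7 CPM in IP (edgeR adjusted p = 0.0218). The shuttling SR proteins Srsf1, Srsf3 and Srsf7 had 0.17, 0.22 and 0.25, and none passed. Within the branch-point complex the subunits had values of both signs. Sf3b1, the large scaffold that clamps the branch point, ranged from 66.8 to 127 CPM (median 80.6) in IP and from 32.8 to 62.2 CPM (median 44.3) in pre-IP and rose by 0.91 ± 0.15 (edgeR adjusted p = 0.000459). Its partner Sf3b3 fell by 0.46 ± 0.11 and the SF3A subunit Sf3a1, at 41.6 to 71.5 CPM (median 55.5) in IP and 71.1 to 89.6 CPM (median 84.1) in pre-IP, by 0.63 ± 0.10 (edgeR adjusted p = 0.00505 and 0.000328). Sf3a1 was lower in IP in 7 of 7 animals, although 1 IP library reached into the pre-IP range. Sf3b4 also fell, by 0.38. With offsets for transcript GC and length, Sf3b3 and Sf3b4 both stood at -0.21 and lost the call (edgeR adjusted p = 0.143 and 0.0896), and Sf3b1 kept it. Sf3b2 and Sf3a2 had -0.16 and -0.13 and did not pass.

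These fraction differences followed the base composition of the coding sequence. Across the 109 members with a coding sequence, Spearman's correlation of the log2 fold change with the share of codons ending in G or C was -0.59, and with the share of GAA and AGA codons 0.59. Across all 14995 genes tested with a coding sequence the same coefficients were -0.36 and 0.35; genes within 1 set of libraries are not independent, and all points share the libraries. The median share of codons ending in G or C was 41.6% in the 34 members that rose, 60.4% in the 7 that fell and 55.7% in the 68 others. Within the Rbm family the coefficient was -0.76 over 36 genes, in Ddx -0.52 over 33, in Hnrnp -0.31 over 20, in SF3 subunits -0.25 over 9 and in SR proteins -0.20 over 11. In the EYFP animals alone it was -0.56 over 108 members and in the tau animals alone -0.52 over 109. Hnrnpa0 did not follow the trend: 93.8% of its codons end in G or C, and its fold change was 1.15. When each library was corrected for transcript GC and length by a smooth offset, an alternative chosen after seeing the data, 30 members were higher and 3 lower; over all genes 22% were then called, 12.9% higher and 9.02% lower. With the animal as replicate block as well, 37 members were called, where 23.3% of all genes were. Ddx46 kept 1.91, Rbm39 1.34, Rbm25 1.00 and Sf3b1 0.70, whereas Rbm10 went to -0.21 (edgeR adjusted p = 0.240) and Ddx51 to -0.22 (edgeR adjusted p = 0.238). Of the 41 calls, 27 were kept with the offsets, and the others were lost, namely Ddx50, Ddx51, Hnrnph1, Hnrnph3, Hnrnpr, Rbm10, Rbm12, Rbm12b2, Rbm14, Rbm46, Rbm8a2, Sf3b3, Sf3b4 and Srsf10. Hnrnpul1 stayed called but went to -0.26 (edgeR adjusted p = 0.0397), and Hnrnpa3 to 0.49.

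**Figure D2:**
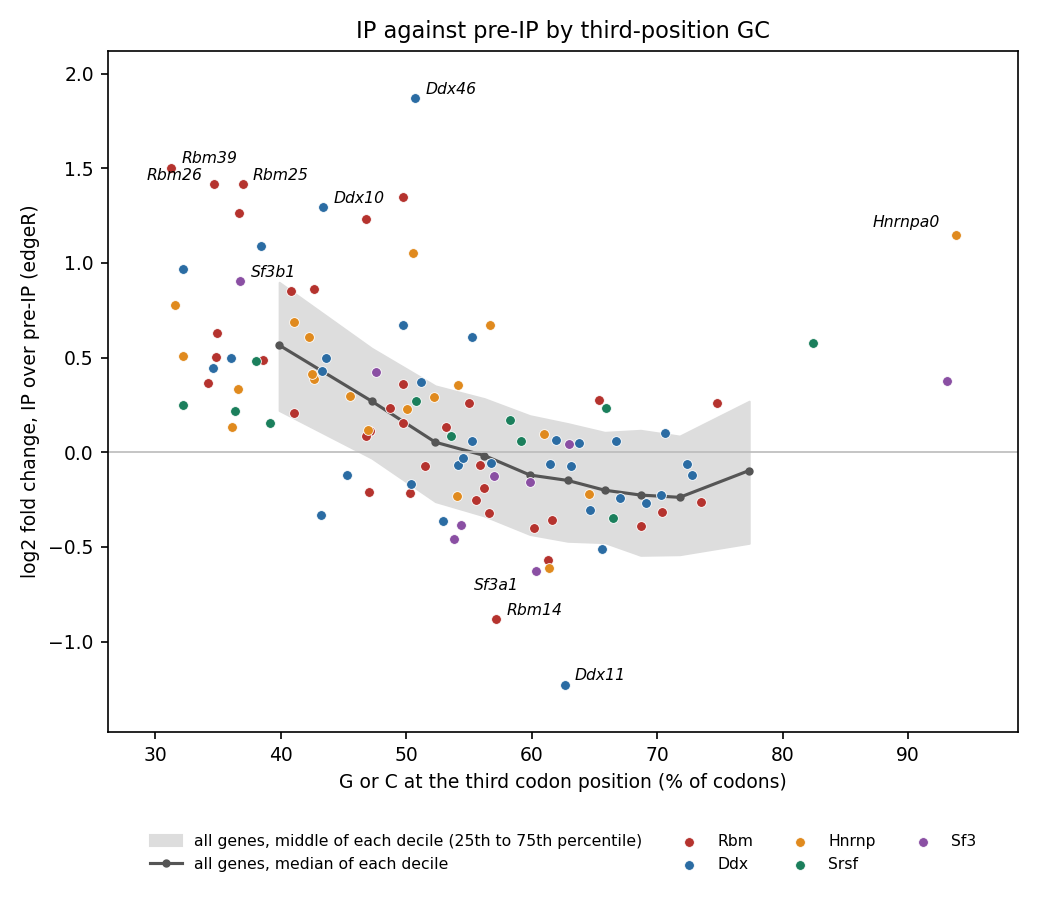
Log2 fold change of IP over pre-IP (edgeR) against the percent of codons ending in G or C for 109 members, coloured by family, with the median and the 25th to 75th percentile of all genes by deciles. Members below 40% lie above 0, Rbm39 at 31.3% among them, the falling members lie between 53.8% and 65.6%, and Hnrnpa0 stands apart at 93.8%.

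Rises were found under both infusions. Within the EYFP animals 13 of 109 members were called, all higher, where 6.38% of all genes were called (3.96% higher). Within the tau animals 22 of 110 were called, 14 higher and 8 lower, where 20.7% of all genes were (10.4% higher and 10.3% lower). Called in both were 9, that is 9 of the 13 and 9 of the 22. Ddx46 had a log2 IP over pre-IP of 1.96, 1.94, 2.13 and 1.73 in tau animals B, C, L and M and 1.38, 2.15 and 1.60 in EYFP animals H, I and K. Rbm39 had 1.23, 1.54, 1.47 and 1.54 and 1.37, 1.67 and 1.64, and Hnrnpa0 had 1.08, 1.22, 0.96 and 1.02 and 1.07, 1.43 and 1.11. For these 3 genes the tau and EYFP animals overlapped, with interaction estimates of 0.20 ± 0.35, -0.13 ± 0.31 and -0.14 ± 0.26. Tau animal B was the lowest for Rbm26 at 0.41 and for Ddx10 at 0.28. Whether the ratios of members went with the noradrenergic marker ratio of an animal was not tested. Without animals I, K and M together, 14 members were called, 12 higher and 2 lower, where 14.7% of all genes were called (8.07% higher and 6.66% lower); among them were Ddx46, Rbm39, Rbm25, Rbm26, Hnrnpa0, Ddx3x, Ddx10 and Sf3b1, and no member outside the 41 was.

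**Figure D3:**
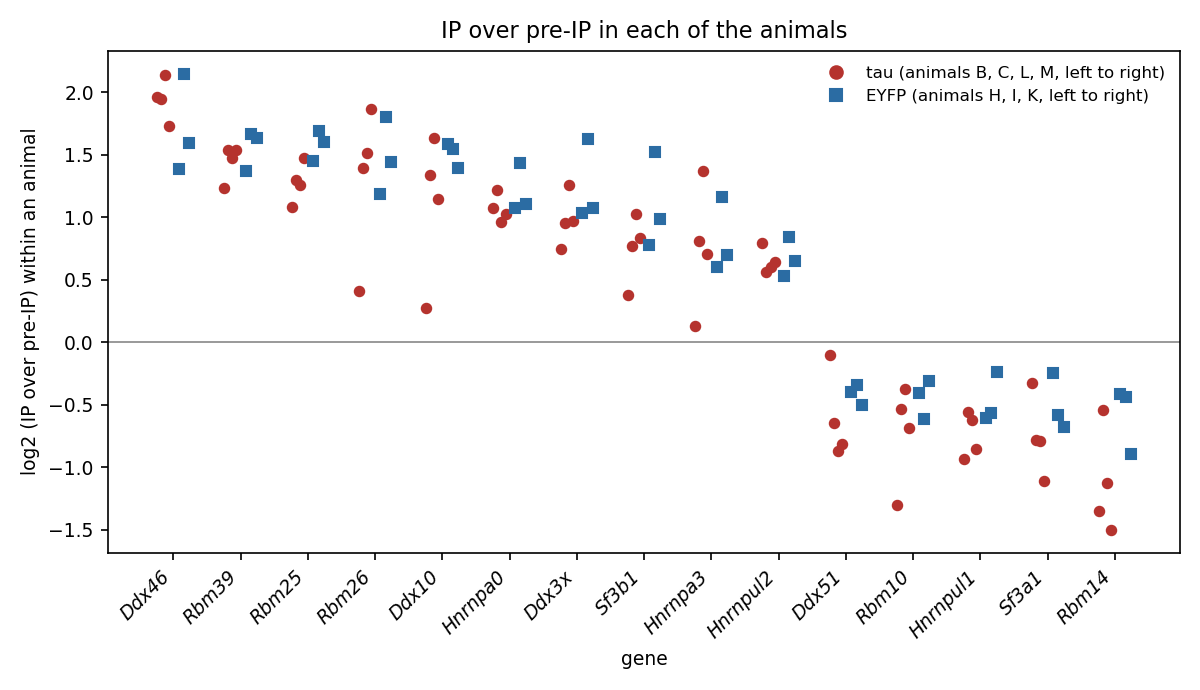
Log2 IP over pre-IP within each animal (vertical axis) for 15 members that were called, with tau animals as circles and EYFP animals as squares. The first 10 genes lie above 0 and the last 5 below 0 in all 7 animals, and the tau and EYFP points overlap for most of them.

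The comparison the study names is tau IP against EYFP IP. No member passed the edgeR test at an adjusted p under 0.05, and neither did any of the 19472 genes tested (0%). At an unadjusted p under 0.05, 7 members were higher and 5 lower of 111, where 12% of all genes were past it (7.93% higher and 4.06% lower). In the 11 noradrenergic markers tested, all values were positive (median 2.81) and had an unadjusted p under 0.05, and those of the astrocyte, oligodendrocyte, microglia and other neuron lists were all negative (medians -0.51, -0.49, -0.55 and -0.48), although none passed after adjustment. Treatment and this difference in marker levels between the precipitates cannot be told apart.

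The lowest p was that of Rbm3, the cold-inducible RNA-binding protein. Its level was 87.0 (B), 58.6 (C), 79.5 (L) and 77.9 (M) CPM in tau IP and 28.9 (H), 50.9 (I) and 40.5 (K) CPM in EYFP IP. All 4 tau libraries were above all 3 EYFP libraries. The log2 difference was 0.91 ± 0.22 (unadjusted p = 0.00233, edgeR adjusted p = 0.318). DESeq2 called it, as the 1 member among 342 genes called over all (1.76%), with 0.94 ± 0.25 and an adjusted p of 0.0137. In the edgeR alternatives run, its adjusted p ranged from 0.0574 with all 14 libraries in a single fit to 0.636 without EYFP animal H. The gene overlaps the antisense transcript Rbm3os, whose levels were at most 1.86 CPM. Cirbp, the other cold-inducible protein of the pathway lists, had 0.47 (unadjusted p = 0.00790, edgeR adjusted p = 0.318). In its list of 36 genes tested, 1 was higher and 2 were lower at an unadjusted p under 0.05. Cirbp also had 0.33 ± 0.18 in pre-IP (edgeR unadjusted p = 0.0958), and its interaction estimate was 0.15 ± 0.24.

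Of the branch-point complex, 3 subunits had an unadjusted p under 0.05, and none passed after adjustment. Sf3b6 was 253 (B), 151 (C), 123 (L) and 139 (M) CPM in tau IP and 81.3, 103 and 118 CPM in EYFP IP of H, I and K, a log2 difference of 0.71 ± 0.25 (unadjusted p = 0.0195, edgeR adjusted p = 0.339). Tau animal B was far above the other 3, and without it the difference was 0.45. Sf3b5 had 0.51 ± 0.19 and was likewise without overlap (unadjusted p = 0.0260, edgeR adjusted p = 0.357). Without tau animal B it had 0.36. The large subunit Sf3b3 was low: 26, 28.2, 25.7 and 24.3 CPM in tau IP of B, C, L and M against 37.1, 39.9 and 34.4 CPM in EYFP IP, with -0.52 ± 0.15 (unadjusted p = 0.00609, edgeR adjusted p = 0.318). The tau libraries formed a narrow range below the EYFP libraries.

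Rbm11, a tissue-restricted splicing regulator found in brain, was 15.5, 10.4, 9.23 and 8.43 CPM in tau IP and 5.24, 7.42 and 6.98 CPM in EYFP IP, again without overlap, with 0.72 ± 0.27 (edgeR adjusted p = 0.345). Rbm18 had 0.44 ± 0.14 without overlap, and Srsf12 and Rbm8a had 0.87 ± 0.30 and 0.52 ± 0.20 with overlapping groups. Without tau animal B Srsf12 had 0.58, Rbm11 0.51, Rbm18 0.40 and Rbm8a 0.36. On the low side, the nuclear matrix protein Hnrnpu had 108, 113, 108 and 108 CPM in tau IP and 121, 179 and 132 CPM in EYFP IP, with -0.41 ± 0.16. Hnrnpa2b1, which binds RNA transport signals, had -0.44 ± 0.19, the nucleolar helicase Ddx27 -0.40 ± 0.18 and Rbm15, a subunit of the RNA methylation writer complex, -0.75 ± 0.33. Without EYFP animal I, whose IP RNA had the low integrity number, Hnrnpu had -0.23 and Hnrnpa2b1 -0.25. All of these genes, in all libraries, had edgeR adjusted p between 0.319 and 0.414. Over all members 5 were wholly above and 7 wholly below EYFP IP, against 8.62% and 5.84% of all genes (14.5% without overlap in either direction).

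**Figure D4:**
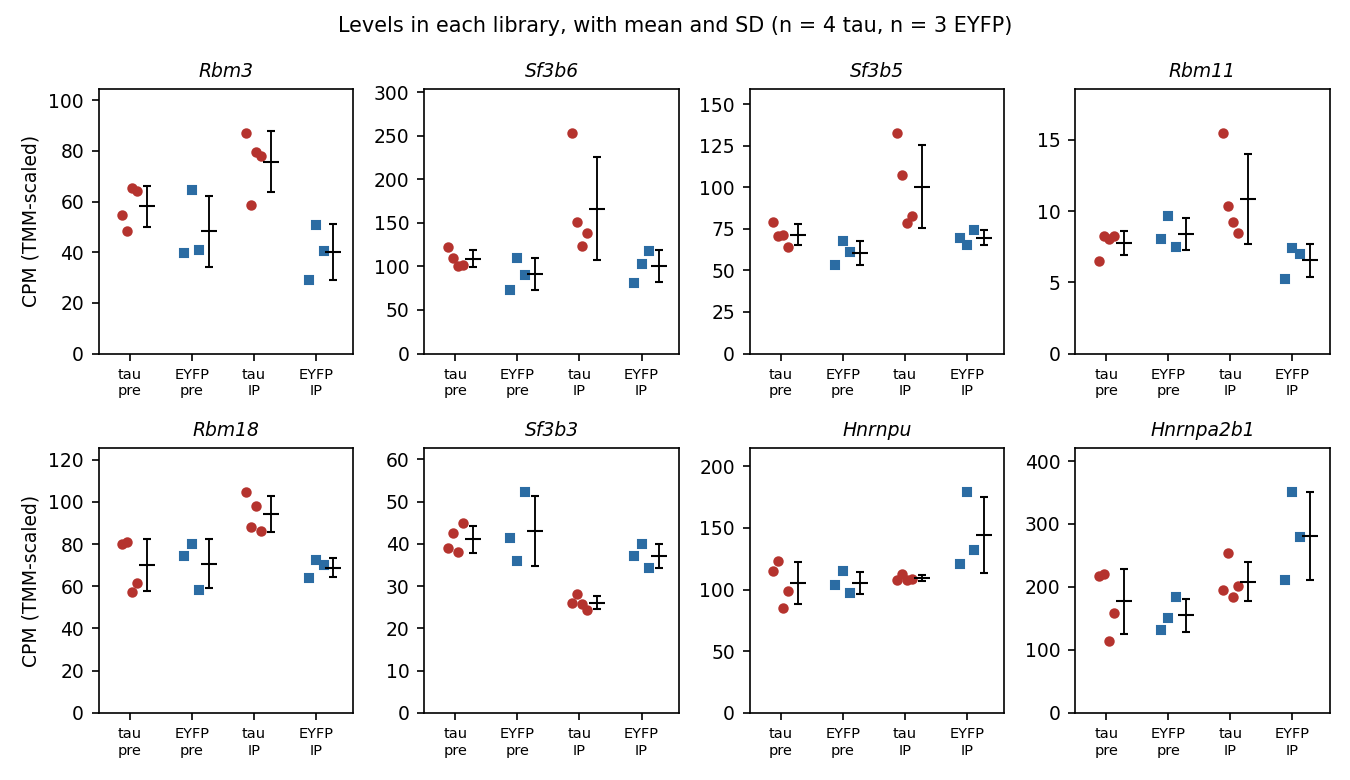
CPM (TMM-scaled, vertical axis from 0) in each library for 8 members, by treatment and fraction, with the mean and SD beside the points (n = 4 tau, n = 3 EYFP). In the IP libraries Rbm3, Sf3b6, Sf3b5, Rbm11 and Rbm18 are higher and Sf3b3 and Hnrnpu lower under tau without overlap, while Hnrnpa2b1 overlaps; in the pre-IP libraries all 8 overlap.

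The tau difference went with coding length. Of the 111 members 75 (67.6%) were lower in tau IP, against 56.6% of all genes, and the median log2 difference was -0.12 against -0.08 over all genes. Spearman's correlation with coding length was -0.42 over 110 members and -0.40 over 15185 genes, all from the same libraries. Between tau and EYFP pre-IP it was -0.07 over 108 members and -0.26 over 15155 genes, so over all genes the trend was also present in the homogenate. Among the 37 shortest members (261 to 1284 coding bases) 17 were higher in tau IP with a median of -0.01, and among the 37 longest (2187 to 5136 bases) 8 were, with a median of -0.21. The high members Sf3b5, Sf3b6, Rbm3 and Rbm8a have coding lengths of 261, 378, 465 and 525 bases, and the low members Sf3b3 and Rbm15 of 3654 and 2889 bases. With the offsets for transcript GC and length, Rbm3 kept 0.99 and Sf3b6 0.68, Sf3b3 went to -0.35, Rbm15 to -0.50 and Hnrnpu to -0.12, the members' median was 0.02, and no member was called.

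**Figure D5:**
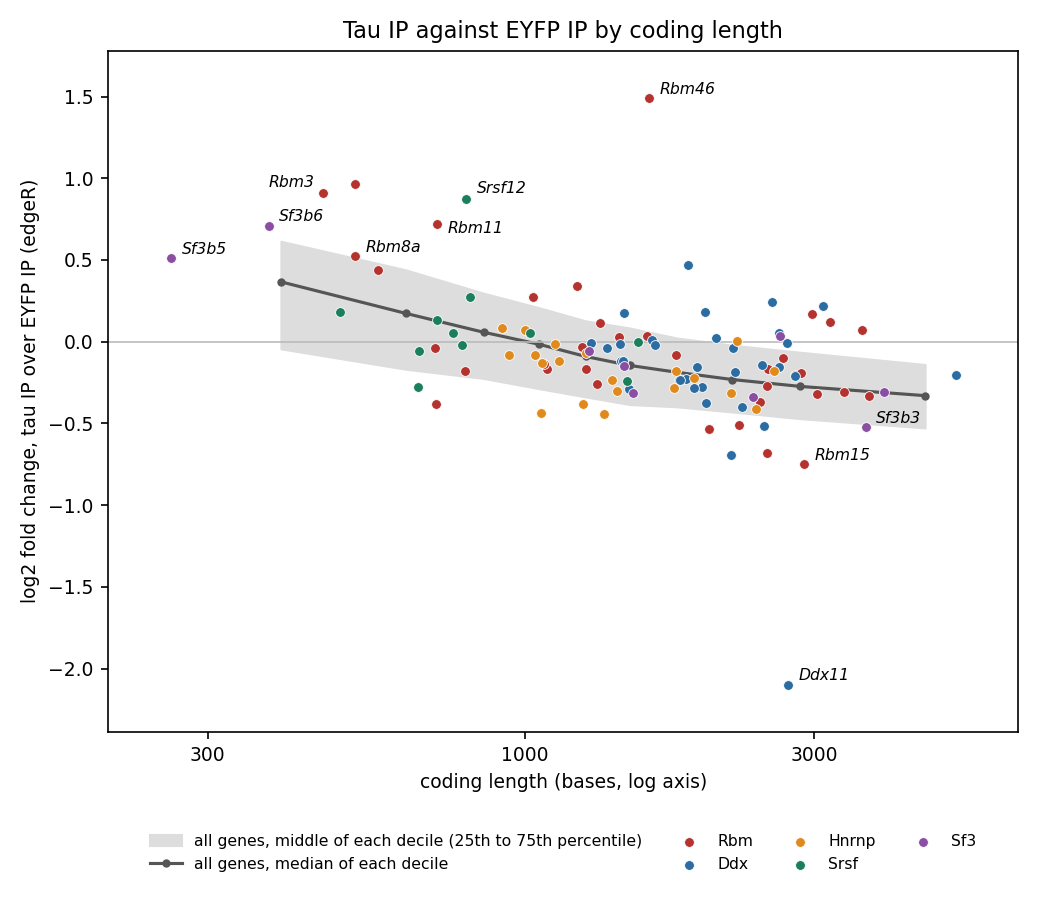
Log2 difference of tau IP over EYFP IP (edgeR) against coding length in bases (log axis) for 110 members, coloured by family, with the median and the 25th to 75th percentile of all genes by deciles. Medians of all genes run from 0.37 in the shortest decile to -0.33 in the longest. The short members Rbm3, Sf3b6 and Sf3b5 lie high, and Ddx11 lies at -2.10.

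The homogenate gave fewer small p-values. No member was called between tau and EYFP pre-IP (edgeR, 0 of 109, and 0% of 19197 genes; DESeq2 called 0), and 2 had an unadjusted p under 0.05, where 2.84% of all genes did. Rbm45, a developmentally regulated RNA-binding protein, was 2.39, 1.96, 2.03 and 2.18 CPM in tau pre-IP and 1.36, 1.38 and 1.50 CPM in EYFP pre-IP, with 0.59 ± 0.22 and no overlap. The SR protein Srsf2 was 8.21, 15.2, 17.8 and 9.31 CPM against 14.8, 15.5 and 32.5 CPM, with -0.73 ± 0.32 and overlap; without EYFP animal K it had -0.27. Rbm3 had 0.26 ± 0.19 in pre-IP (unadjusted p = 0.183). The test of whether the tau difference itself differed between fractions called no member (edgeR, 0 of 111; 0% of 20495 genes; DESeq2 called 0 members and 0.254% of genes). At an unadjusted p under 0.05 it had 5, where 5.97% of all genes had one: Rbm11 with 0.84 ± 0.31, Srsf12 with 0.94 ± 0.37 and Rbm3 with 0.65 ± 0.30 on the high side, Ddx27 with -0.50 ± 0.21 and Sf3b3 with -0.44 ± 0.20 on the low side (edgeR adjusted p from 0.761 to 0.820). Without tau animal B the Rbm11 value was 0.53, and without EYFP animal K that of Sf3b3 was -0.68.

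Factors known to act on exon 10 of the tau transcript were looked at as a list of 9, namely Srsf1, Srsf2, Srsf4, Srsf6, Srsf7, Srsf9, Srsf11, Rbm4 and Tra2b. None was called between fractions, between treatments in either fraction, or in the interaction (edgeR). Between fractions 2 were higher and 1 was lower at an unadjusted p under 0.05, which 21.8% of all genes passed upward and 19.8% downward. The low one was Srsf4, which was from 11.3 to 21.1 CPM (median 16.4) in IP and from 17.2 to 21.5 CPM (median 19.1) in pre-IP, lower in 7 of 7 animals, with -0.35 ± 0.14 (edgeR adjusted p = 0.0806; 0.0429 with the animal as replicate block). In tau IP against EYFP IP the list's median was 0.00. Srsf1 was 76.4, 63.5, 62.4 and 67.1 CPM in tau IP and 51.7, 73.4 and 67.7 CPM in EYFP IP, and Srsf6 78.1, 49.4, 49.6 and 54.0 CPM and 41.8, 63.3 and 60.1 CPM. Their differences were 0.06 ± 0.16 and 0.06 ± 0.22, smaller than their SEs. Srsf2 and Srsf9 varied most, from 7.0 to 39.1 CPM and from 24.5 to 93.8 CPM over the IP libraries, with SEs of 0.60 and 0.47 on the tau difference, so a difference of that size was not detectable here. Rbm4 lies wholly within the readthrough gene Gm21992 on the same strand and had at most 3.09 CPM, against 39.8 CPM for its near-identical paralog Rbm4b, so how reads fell between them is uncertain.

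Paralogs were set side by side, since the authors' counting could split reads that match both copies. Ddx5 and Ddx17, helicases that act with the small RNA and splicing machinery, both rose in IP, by 0.50 ± 0.14 and 0.67 ± 0.16 (edgeR adjusted p = 0.0129 and 0.00442). Without EYFP animal I the adjusted p of Ddx5 was 0.0552. Hnrnph1 rose by 0.69 ± 0.19 and Hnrnph2 had 0.39 ± 0.19 and did not pass (edgeR adjusted p = 0.0122 and 0.130). With the offsets for transcript GC and length Hnrnph1 went to 0.26 (edgeR adjusted p = 0.161), and without animals I, K and M to 0.36 (edgeR adjusted p = 0.325). Rbm12b2 rose by 0.50 beside 0.36 for Rbm12b1, and lost the call with the animal as replicate block (edgeR adjusted p = 0.0589) and under 12 other alternatives, each single animal but B left out among them. Hnrnpl and Hnrnpll, repressors of the same kind of exon, had -0.22 and 0.12, and Ddx19a and Ddx19b -0.24 and -0.31, with none past the threshold. Differences within a pair were not tested.

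Other genes of the splicing pathway moved in both directions between fractions. These lists are read against the 16.3% of all genes that rose and the 14.7% that fell. Of 36 tested neuronal and general splicing regulators 14 rose and 4 fell. The nuclear matrix protein Matr3 rose by 1.43, the neuronal Elav-like genes Elavl4, Elavl2 and Elavl3 by 0.97, 0.74 and 0.58, and Tra2a by 0.72; Ptbp1, the repressor that neurons switch off, fell by 0.78 and Rbfox3, the neuronal nuclear antigen, by 0.46. Of 29 snRNP and tri-snRNP genes 8 rose and 3 fell, a share called near that of all genes, the rises including the Sm proteins Snrpd1, Snrpd2, Snrpd3, Snrpe and Snrpg, from 0.45 to 0.84. Of 17 exon junction genes and other helicases 5 rose, Dhx36 the most at 1.26, and 6 fell, Nxf1 the most at -0.81. Tardbp, the gene of TDP-43, rose by 0.71 and Ewsr1 fell by 0.40. In tau IP against EYFP IP none of these 86 genes was called by edgeR; 7 snRNP genes had an unadjusted p under 0.05, all higher, among them Snrpf with 0.99 ± 0.33 and, with the smallest p, Snrpe with 0.79 ± 0.22.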

How the data were processed

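RNA from 14 libraries of 7 mice was analysed. The labels' protocols record column purification of RNA and libraries made with the SMART-Seq and Nextera XT kits. The submitters' processing notes name FastQC, Trim Galore, STAR and featureCounts and the builds GRCm38 and mm10, without roles; whether counting used strand, and what was done with multiply matching reads, is not given in the sources used here. The authors deposited whole-number read counts per gene, not normalized, with a gene table whose coordinates equalled GENCODE M21 for all 50924 shared identifiers; 3710 entries had no gene table row. RNA concentrations, RNA integrity numbers (a score per library) and the percent of GC in the reads come from the sheet the authors deposited, per the file headers. Gene lengths come from the gene table. The members, gene lists and tests were chosen with earlier results of these data known.

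Counts were filtered (filterByExpr), TMM-scaled and fitted with edgeR 4.0.16 quasi-likelihood tests in R 4.3.3 over the whole table, with Benjamini-Hochberg adjustment over all genes tested and a threshold of 0.05; SEs were derived from the F statistic. DESeq2 1.42.0 was an alternative. Ratios within an animal used a prior count of 2. IP and pre-IP of an animal share its letter and come from the same animal; their deviations from group means correlated by 0.15 to 0.36 (mean 0.22), so the animal was also fitted as a replicate block. Base composition was computed from the longest coding sequence of each gene in GENCODE M21 on GRCm38, and the GAA and AGA share was chosen after seeing the values. Genes named were, per family, up to 3 members in each direction with the largest called change and no overlap between fractions, the 5 with the smallest p in each direction for the other comparisons, the highest per length, and fixed lists; others named were chosen after their values were seen. The scripts were tested on simulated counts. Of the members, 60 overlap another annotated gene, 43 of them on the opposite strand, where reads cannot be told apart without strand. The limit given for a count of 0 covers counting error only, and PCR duplicates are not resolved by molecular identifiers.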

Additional observations from a re-analysis of the deposited data

Results flagged for a closer look

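The 126 combinations looked at paired a group of 4 libraries with a named gene or a summed level. Summed levels were those of each family and of all members. In 7 combinations, all single genes, 1 library's gap to the nearest other took up most of the group's range (Dixon's test at the 95% level). Chance gives about 1 in 20, or 6.3. In tau IP, animal C stood at 112.8 CPM for Hnrnpu, where the others ran from 107.5 to 108.4 CPM, and at 42.6 CPM for Rbm25, where they ran from 30.8 to 32.6 CPM. Animal B stood in tau IP at 5.74 CPM for Rbm26 (others 9.84 to 10.5 CPM) and at 78.1 CPM for Srsf6 (others 49.4 to 54.0 CPM). In tau pre-IP, animal B stood at 6.51 CPM for Rbm11 (others 8.01 to 8.27 CPM), animal C at 26.9 CPM for Rbm33 (others 20.1 to 20.7 CPM) and animal L at 29.8 CPM for Rbm4b (others 36.4 to 37.5 CPM).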

How the results depend on the processing

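Of 1150 single-gene alternatives over 70 gene results, 1095 stayed on the same side of the threshold, 40 lost the call and 15 gained it. Where either fit had a call, 0 turned sign. Changes of sign without a call in either fit were counted among the 1095. The 41 calls between fractions became 22 in tau animals only, 13 in EYFP animals only and 14 without animals I, K and M, settings with fewer samples; leaving out 1 animal gave 30 to 40. With the animal as replicate block 39 members were called, 30 higher and 9 lower (36 shared with the 41); over all genes 32.6% were called. The block changed no other call than these: it ended the calls of Hnrnpdl, Rbm12, Rbm12b2, Rbm46 and Rbm8a2 and added Ddx42, Sf3b6 and Srsf4. Filters, DESeq2 size factors, the DESeq2 test and the library-number range as covariate gave 36 to 45. Offsets for transcript GC and length gave 33 calls (27 of them among the 41), and with the block 37 (29 among the 41, 28 in the same direction); the exception was Hnrnpr. Of 18 genes named by rule and called between fractions, 8 were called under every alternative run: Ddx10, Ddx3x, Ddx46, Hnrnpa0, Rbm25, Rbm26, Rbm39 and Sf3b1. For tau IP against EYFP IP the DESeq2 test called 1 member, Rbm3; all edgeR alternatives called 0, and leaving out 1 animal gave 0 to 0, as it did in pre-IP and for the interaction, where the block also called 0. Without length correction the highest member per family was the same in 2 of 5 families. The cause of these shifts was not tested. At the depth of these libraries a count of 0 limits a level to at most 0.0717 CPM, for counting error only.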

Other observations

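Ddx3x, which lies on the X chromosome and is known to escape X inactivation, had pre-IP levels of 48.0, 40.9 and 39.4 CPM in animals C, H and K, labelled female, 41.4, 32.3 and 22.5 CPM in animals B, I and L, labelled male, and 30.7 CPM in animal M, labelled female but with Y-linked counts. The labelled sexes overlap, and no test was made.

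Several members were near the floor in single IP libraries. Rbm45 was at 0.230 CPM in the IP of tau animal B and between 1.15 and 2.15 CPM in the other 6 IP libraries. The DNA helicase Ddx11 had 0 counts in the IP of tau animal B, 0.157 to 0.658 CPM in the other tau IP libraries, 0.990 to 1.92 CPM in EYFP IP and 0.791 to 2.43 CPM in pre-IP. All tau IP libraries were below all EYFP IP libraries, with a log2 difference of -2.10 ± 1.00 that did not pass (unadjusted p = 0.0626, edgeR adjusted p = 0.437). Ddx20, a component of the SMN complex that assembles snRNPs, was 4.59, 10.4, 10.9 and 9.35 CPM in tau IP of animals B, C, L and M and 14.1, 11.6 and 11.9 CPM in EYFP IP, also without overlap (edgeR adjusted p = 0.523).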
